A study of Mus musculus with 12 samples.

Results

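Transforming growth factor beta (TGF-beta) is the best known driver of scar formation in the liver. The set described here holds 10 genes of its pathway, chosen by name: the ligands Tgfb1, Tgfb2 and Tgfb3, the receptors Tgfbr1 and Tgfbr2, the signal carriers Smad2, Smad3, Smad4 and Smad7, and Tgfbi, a matrix protein named for its induction by the ligand. All 10 were found among the 24983 genes of the count table, and all 10 had enough reads to be among the 14469 genes tested. Livers came from 12 C57BL/6J mice in 4 groups of 3. In 3 of the groups the mice ate, for 24 weeks, a diet made to cause nonalcoholic steatohepatitis (NASH, a fatty, inflamed liver), rich in cholesterol, fructose, saturated fat and trans fat, where fat gave 40% of the calories. These mice had an osmotic minipump under the skin that released nitro-oleic acid (OA-NO2), oleic acid (OA) or the solvent polyethylene glycol alone (vehicle). Both fatty acids were given at 5 mg/kg/day, and OA-NO2 is oleic acid that carries a nitro group. The fourth group ate standard chow, and the labels mention no pump for it, so the diet and the pump cannot be told apart in any comparison with chow. The labels used here give neither age nor sex. The stated purpose of the series is to learn how nitro-fatty acids affect fat storage and scarring in this diet model.

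TGF-beta ligands are secreted in a latent form, bound to their own propeptide and to latent TGF-beta binding proteins, and must be released before they can act. Free ligand binds Tgfbr2, which then activates Tgfbr1. Tgfbr1 phosphorylates Smad2 and Smad3, which join Smad4, enter the nucleus and switch genes on or off. Smad7 is induced by the pathway and blocks it at the receptor. In injured liver, macrophages, platelets, endothelium and stellate cells are known sources of the ligand, and stellate cells answer it by making collagen.

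Stretches upstream of the start of 4 genes are shown, because these 4 were called higher than chow in both the vehicle and the OA group. RefSeq sequences of the build GRCm38.p6 were available for 6 of the 10 genes. Each is written 5′ to 3′ on the strand of the gene and ends at the base before the start, and capitals mark CAGAC or its reverse complement GTCTG, the letters that Smad3 and Smad4 are known to bind. The Tgfb1 stretch (chr7:25686752-25687001, plus strand) is 250 bases long, as are those of Tgfb2 (chr1:186705990-186706239, minus strand) and Tgfbr2 (chr9:116175364-116175613, minus strand). The Tgfbi stretch (chr13:56609336-56609522, plus strand) was cut to 187 bases, because the GENCODE gene begins before the RefSeq start.
Tgfb1: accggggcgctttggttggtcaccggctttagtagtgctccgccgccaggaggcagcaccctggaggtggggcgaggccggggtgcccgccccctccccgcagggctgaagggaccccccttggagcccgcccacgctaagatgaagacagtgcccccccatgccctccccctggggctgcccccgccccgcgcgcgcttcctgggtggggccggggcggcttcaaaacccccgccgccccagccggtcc
Tgfb2: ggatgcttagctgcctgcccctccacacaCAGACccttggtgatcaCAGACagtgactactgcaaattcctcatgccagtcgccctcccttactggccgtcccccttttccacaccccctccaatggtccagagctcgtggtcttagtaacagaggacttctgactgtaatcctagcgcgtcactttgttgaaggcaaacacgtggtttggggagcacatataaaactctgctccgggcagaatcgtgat
Tgfbr2: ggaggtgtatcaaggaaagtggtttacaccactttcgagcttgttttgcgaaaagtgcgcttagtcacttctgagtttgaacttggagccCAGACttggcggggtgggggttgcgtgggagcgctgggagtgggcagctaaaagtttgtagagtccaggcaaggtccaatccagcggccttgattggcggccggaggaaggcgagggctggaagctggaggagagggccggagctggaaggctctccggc
Tgfbi: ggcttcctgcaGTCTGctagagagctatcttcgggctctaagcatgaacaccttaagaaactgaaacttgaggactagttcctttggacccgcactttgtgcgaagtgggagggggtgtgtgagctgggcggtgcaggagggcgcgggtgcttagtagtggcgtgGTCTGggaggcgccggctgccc
Searched on both strands, CAGAC had 2 matches upstream of Tgfb2, 2 upstream of Tgfbi, 1 upstream of Tgfbr2 and 0 upstream of Tgfb1. It was present in 42.2% of the 250-base stretches of 32851 RefSeq promoters. GGGCGG, the GC box bound by Sp1, had 5 matches upstream of Tgfb1 and 1 upstream of Tgfbi, and was present in 32.7% of all promoters. TATAAA, the TATA box, had 1 match, upstream of Tgfb2, and was present in 12.4% of all. TGANTCA, which takes in the AP-1 site, had 0 matches in the 4 stretches and was present in 6.75% of all. No match of one of these motifs overlapped a match of another. GC content was 75.2% upstream of Tgfb1, 53.6% for Tgfb2, 58.4% for Tgfbr2 and 62.4% for Tgfbi. Matches and GC content were taken over all 250 bases before the RefSeq start, also for Tgfbi, of which 187 are shown. A match is a description of the letters and does not show that a factor binds there.

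Chow replicate 1 was the shallowest library, with 8462590 counts, and the other 11 held between 15972613 and 20613777. Hepatocyte markers were abundant in every library, with albumin (Alb) alone at 4.06% to 9.5% of counts, which fits the liver label. Levels are given in CPM, read counts normalised to a common TMM-scaled library total, and comparisons between genes as CPM per kb of exon. Without TMM, on plain library size, the median gene stood higher than in chow by 0.34 (OA-NO2), 0.42 (OA) and 0.51 (vehicle) on the log2 scale, so every change below is relative to the TMM scale. Relative to vehicle, that median was -0.18 with OA-NO2 and -0.09 with OA, and between OA-NO2 and OA it was -0.11. A gene is called where the quasi-likelihood test of edgeR gave a Benjamini-Hochberg adjusted p under 0.05 over the 14469 genes. In whole liver, fewer cells of a type and less RNA per cell cannot be told apart, which holds for every value below.

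Per length of exon, Tgfbi had the highest mean of the 10 genes in every group, and Tgfb2 the lowest. With vehicle, Tgfbi stood at 23.5 ± 3.64 CPM per kb (SD, n = 3). Tgfbr1 (6.97 ± 1.07), Smad4 (6.92 ± 0.820) and Tgfbr2 (6.71 ± 1.62) came next and did not differ from each other beyond their spread. Tgfb1 followed at 2.87 ± 0.525 CPM per kb. Smad3, Smad7 and Smad2 came after it at 1.92 ± 0.271, 1.56 ± 0.181 and 1.35 ± 0.157 CPM per kb, and the libraries of neighbours in this order overlapped. Tgfb3 and Tgfb2 were at the low end, at 0.616 ± 0.391 and 0.470 ± 0.190 CPM per kb. These 2 overlapped, and in vehicle replicate 2 Tgfb2 was above Tgfb3. In chow Tgfbi, at 11.7 ± 2.13 CPM per kb, was followed by Smad4 at 6.40 ± 1.21, Tgfbr1 at 4.70 ± 0.882 and Tgfbr2 at 3.49 ± 0.260 CPM per kb, where Smad4 and Tgfbr1 overlapped and Tgfbr2 lay below both. There Smad3, Smad7 and Smad2, at 1.55 ± 0.446, 1.47 ± 0.496 and 1.39 ± 0.169 CPM per kb, had means above that of Tgfb1 at 1.12 ± 0.376, within the spread of those libraries.

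**Figure D1:**
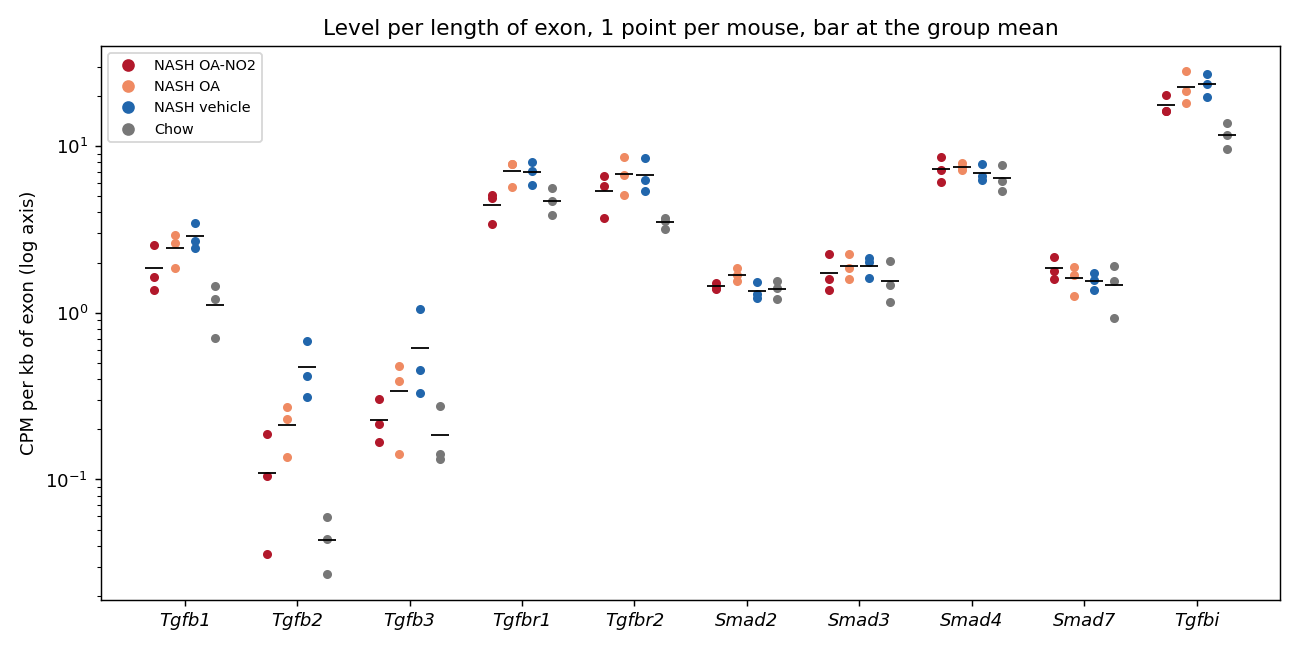
Level of each gene in CPM per kb of exon on a log axis, 1 point per mouse, with a bar at the mean of each group of 3. By mean, Tgfbi is highest in all 4 groups, at 23.5 with vehicle and 11.7 in chow, and Tgfb2 is lowest, at 0.470 with vehicle and 0.0435 in chow.

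The ligands were compared first between vehicle-infused mice on the NASH diet and chow-fed mice, which asks what the diet did to the pathway. All 3 ligand transcripts rose, Tgfb2 the most, from a chow level of only a few reads per library. Tgfb1, the main ligand of liver (ENSMUSG00000002603, chromosome 7, 25687002 to 25705077, GRCm38), had 13.7, 12.4 and 17.5 CPM in vehicle livers, against 3.59, 6.12 and 7.30 CPM in chow livers. Every vehicle library was above every chow library. On the log2 scale the fold change was 1.31 ± 0.29 (SE, adjusted p = 0.00906), with a 95% interval of 0.70 to 1.93.

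Tgfb2, a ligand known from fibroblast-like and biliary cells as well as from development (ENSMUSG00000039239, chromosome 1, 186622792 to 186705989), had 1.82, 3.94 and 2.41 CPM in vehicle livers, against 0.156, 0.344 and 0.256 CPM in chow livers. The chow values rest on 10 reads over the 3 libraries, against 170 reads with vehicle. The groups did not overlap, and the log2 fold change was 3.30 ± 0.59 (adjusted p = 0.0040), with an interval of 2.03 to 4.57.

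Tgfb3, a ligand of mesenchymal cells (ENSMUSG00000021253, chromosome 12, 86056745 to 86079041), had 1.12, 1.55 and 3.59 CPM in vehicle livers, against 0.936, 0.482 and 0.448 CPM in chow livers, from 138 and 20 reads. The lowest vehicle library was just above the highest chow library. This was a log2 fold change of 1.86 ± 0.57 (adjusted p = 0.0374). It was not called without any 1 of the chow libraries or without vehicle replicate 2 or 3 (edgeR adjusted p of 0.0553 to 0.188), and without vehicle replicate 3 the log2 fold change was 1.2. Tgfb2 shares 124 exonic bases, 2.14% of its exons, with the antisense gene Gm29491 in GENCODE M21. Tgfb3 shares 4.82% of its exons with Gm37804 and 7.60% with Gm48008, both also antisense, and no source used here states whether the counting used strand, so reads in those stretches cannot be assigned to a strand.

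Summed per length, the 3 ligands stood at 2.18 ± 0.759 CPM per kb with OA-NO2, 3.0 ± 0.792 with OA, 3.96 ± 0.856 with vehicle and 1.35 ± 0.310 in chow (SD, n = 3 each). Tgfb1 made up 84.8% ± 1.89 of that sum with OA-NO2, 82.3% ± 4.04 with OA, 73.1% ± 6.75 with vehicle and 81.7% ± 10.2 in chow. Tgfb2 made up 4.60% ± 2.05, 6.99% ± 0.558 and 12.3% ± 5.84 of it with OA-NO2, OA and vehicle, against 3.19% ± 0.870 in chow. In vehicle replicate 2 its share was 19.0%, the highest of the 12 libraries, and in the other libraries it lay between 2.28% and 9.36%.

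Tgfbr2, the receptor that binds the ligand, also rose. It had 50.9, 44.1 and 69.8 CPM in vehicle livers, against 26.2, 30.3 and 29.3 CPM in chow livers (ENSMUSG00000032440, chromosome 9, 116084293 to 116175360). Chow libraries lay close together, and every vehicle library was well above them. Tgfbr2 stood at a log2 fold change of 0.94 ± 0.24 (edgeR adjusted p = 0.0181). It stayed positive but was no longer called without chow replicate 1, chow replicate 2 or vehicle replicate 3, where the highest adjusted p was 0.0829.

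Tgfbr1, the kinase that Tgfbr2 activates (ENSMUSG00000007613, chromosome 4, 47353222 to 47414931), had 38.3, 52.2 and 46.2 CPM in vehicle livers, against 30.4, 36.6 and 25.1 CPM in chow livers. The groups did not overlap, but the log2 fold change of 0.57 ± 0.20 did not pass (edgeR adjusted p = 0.0605, interval 0.14 to 1.0). DESeq2 called it at an adjusted p of 0.0402, and edgeR called it on the 2 groups alone at 0.0474.

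The 4 Smads gave no call between vehicle and chow. Smad2, a receptor-activated Smad (ENSMUSG00000024563, chromosome 18), had 11.4, 10.7 and 13.4 CPM in vehicle livers, against 10.6, 13.6 and 12.4 CPM in chow livers, a log2 fold change of -0.05 with an interval of -0.38 to 0.27. Smad3, the receptor-activated Smad best known for turning on collagen genes (ENSMUSG00000032402, chromosome 9, 63646767 to 63757994), had 8.95, 11.8 and 11.1 CPM in vehicle livers, against 6.39, 8.12 and 11.3 CPM in chow livers. Its log2 fold change was 0.28, with an interval of -0.23 to 0.80. The groups overlapped for both genes.

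Smad4, the partner that both need (ENSMUSG00000024515, chromosome 18), had 23.3, 24.7 and 29.1 CPM in vehicle livers, against 19.8, 28.6 and 22.8 CPM in chow livers, a log2 fold change of 0.11 with an interval of -0.26 to 0.47. Smad7, the inhibitor (ENSMUSG00000025880, chromosome 18), had 7.87, 6.24 and 7.10 CPM in vehicle livers, against 4.21, 7.02 and 8.64 CPM in chow livers, a log2 fold change of 0.06 with an interval of -0.46 to 0.58. The adjusted p of the 4 Smads ran from 0.429 to 0.886. The highest upper bound of the 4 intervals was 0.80, for Smad3. On plain library size, which moves all genes up, Smad2 turned to 0.463 (adjusted p = 0.046), and Smad3 and Smad4 were called higher as well.

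Tgfbi, the induced matrix protein (ENSMUSG00000035493, chromosome 13, 56609523 to 56639562), rose with the ligands. It had 74.6, 89.6 and 102 CPM in vehicle livers, against 44.1, 36.0 and 52.1 CPM in chow livers. Every vehicle library exceeded every chow library, and the log2 fold change was 1.01 ± 0.20 (edgeR adjusted p = 0.00537, interval 0.59 to 1.43).

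**Figure D2:**
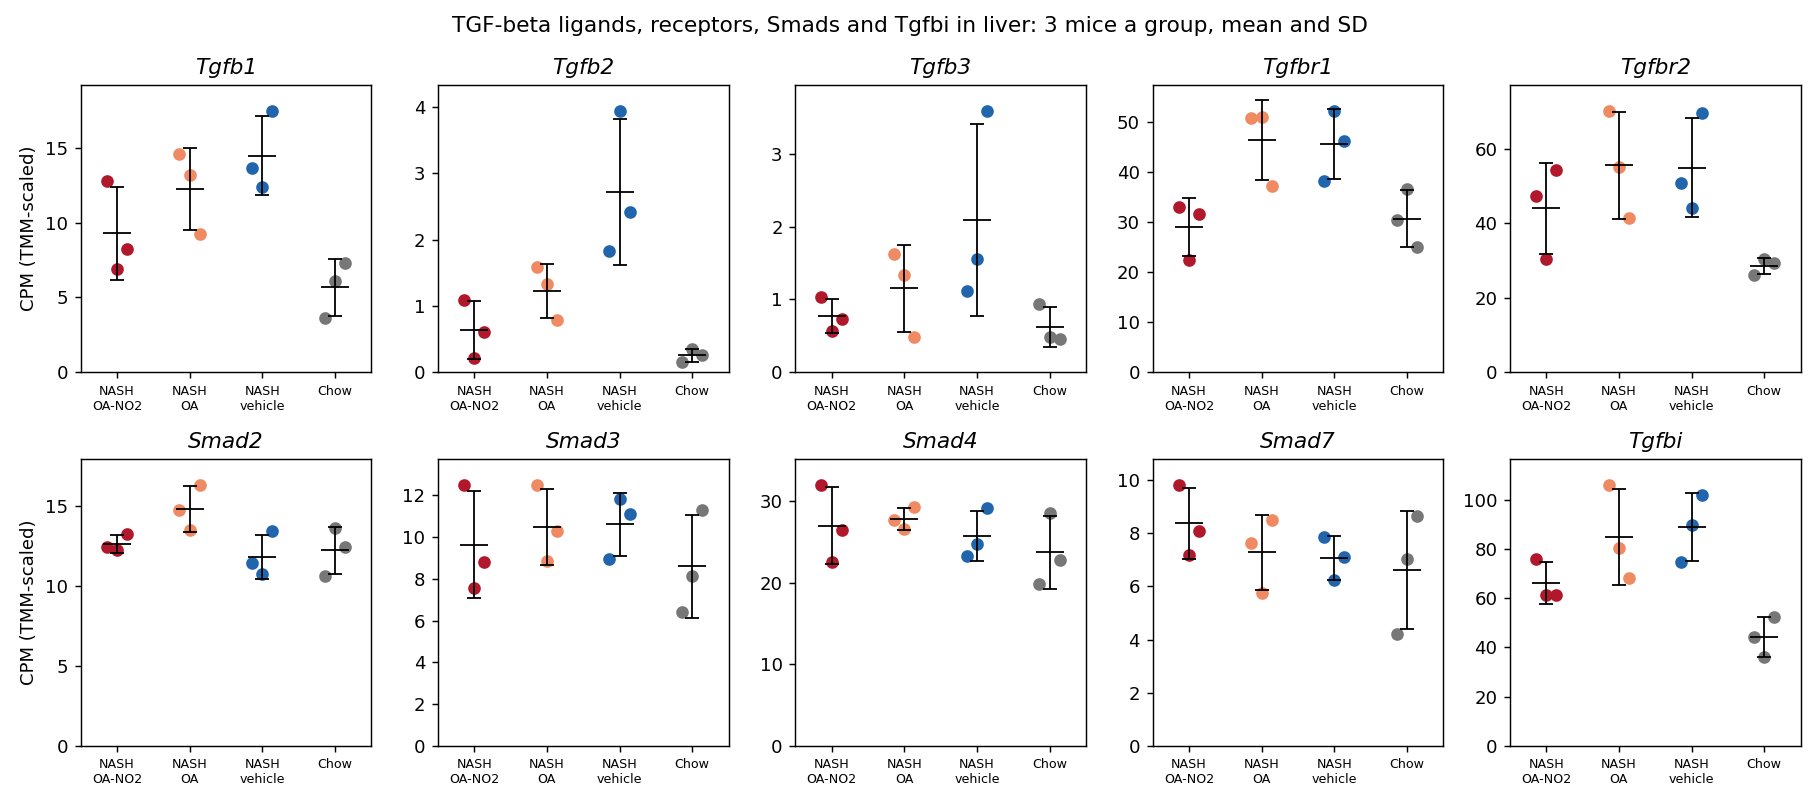
CPM of each of the 10 genes in each mouse, with the mean and SD of each group of 3; each panel has its own axis from 0. The vehicle points of Tgfb1, Tgfb2, Tgfb3, Tgfbr1, Tgfbr2 and Tgfbi all lie above the chow points, while those of the 4 Smads overlap them.

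In all, 5 of the 10 genes were called between vehicle and chow, all higher, and 6 had groups that did not overlap, all higher. Over all tested genes, 19.3% were called, 11.1% were called higher, and 20.4% had vehicle values that all lay above the chow values. On plain library size 5510 of 5758 called genes were higher, against 1606 of 2786 on the TMM scale. DESeq2 called 6 of the 10, against 20.9% of all genes. Without chow replicate 1, chow replicate 2 or vehicle replicate 3, edgeR called 3. Over all genes edgeR called 1200 without vehicle replicate 3.

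The other NASH-diet groups were compared with the same chow libraries, so the 3 comparisons share their controls. OA livers had 14.6, 13.2 and 9.27 CPM of Tgfb1, against 3.59, 6.12 and 7.30 CPM in chow, and the log2 fold change was 1.08 ± 0.29 (edgeR adjusted p = 0.0339). Tgfb2 had 1.58, 1.33 and 0.783 CPM in OA livers, all above the 0.344 CPM of the highest chow library, and rose by 2.17 ± 0.61 on the log2 scale (adjusted p = 0.0443). Tgfb3 had 1.63, 1.33 and 0.482 CPM in OA livers, and OA replicate 3 lay within the chow range, with no call (1.01 ± 0.59, adjusted p = 0.303).

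Tgfbr2 had 70.2, 55.2 and 41.5 CPM in OA livers and was called higher than chow (0.96 ± 0.24, adjusted p = 0.0271). Tgfbr1 had 50.9, 51.1 and 37.2 CPM, above all chow libraries, at 0.60 ± 0.20 (adjusted p = 0.0787; DESeq2 adjusted p = 0.0485). Tgfbi had 106, 80.2 and 68 CPM and was called higher (0.94 ± 0.19, adjusted p = 0.0115). The 4 Smads stood between 0.10 and 0.27 on the log2 scale with no call.

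That made 4 of 10 genes called higher with OA than in chow, where edgeR called 8.56% of all genes and 6.33% of them higher. On plain library size 3649 of 3776 called genes were higher, against 916 of 1238 on the TMM scale. The 10 genes had 5 without overlap, where 16.7% of all genes had OA values all above chow. With all libraries DESeq2 called 5 of the 10, against 12.1% of all genes. Of the 10, 5 had an unadjusted edgeR p under 0.05, all higher, against 15.1% of all genes in that direction. The edgeR count rested on single libraries. It was 1 without chow replicate 1, 0 without chow replicate 2, 2 without chow replicate 3, 0 without OA replicate 1 and 1 without OA replicate 2. Without OA replicate 3 it was 5. That library was the lowest of its group for 6 of the 10 genes, namely the 3 ligands, both receptors and Tgfbi.

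With OA-NO2, none of the 10 genes was called against chow by edgeR or by DESeq2, and 3 had an unadjusted edgeR p under 0.05, all higher (Tgfb1, Tgfbr2 and Tgfbi). Over all genes, edgeR called 0.684%, 63 higher of 99, against 1099 of 1127 on plain library size, and DESeq2 called 5.08%. In the higher direction 10.7% of all genes had an unadjusted edgeR p under 0.05. Tgfbr2 had 47.3, 30.4 and 54.3 CPM in OA-NO2 livers, against 26.2, 30.3 and 29.3 CPM in chow livers. Its lowest OA-NO2 library only just cleared the chow range. Tgfbi had 76.0, 61.1 and 61.4 CPM in OA-NO2 livers, all above chow. These 2 genes were without overlap, as were 12.3% of all genes in that direction. The log2 fold changes were 0.62 ± 0.24 for Tgfbr2 (adjusted p = 0.196) and 0.59 ± 0.19 for Tgfbi (adjusted p = 0.145).

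Tgfb1 stood at 0.67 ± 0.29 on the log2 scale (adjusted p = 0.228) and Tgfb2 at 1.21 ± 0.65 (adjusted p = 0.330), or 0.55 without OA-NO2 replicate 1. Tgfb3, at 0.43 ± 0.61, had an interval from -0.87 to 1.74. Tgfbr1 stood at -0.08, with an interval of -0.51 to 0.35. The 4 Smads lay between 0.04 and 0.30, with no call. A missing call in OA-NO2 livers does not show a difference from the other NASH-diet groups, which is tested below.

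**Figure D3:**
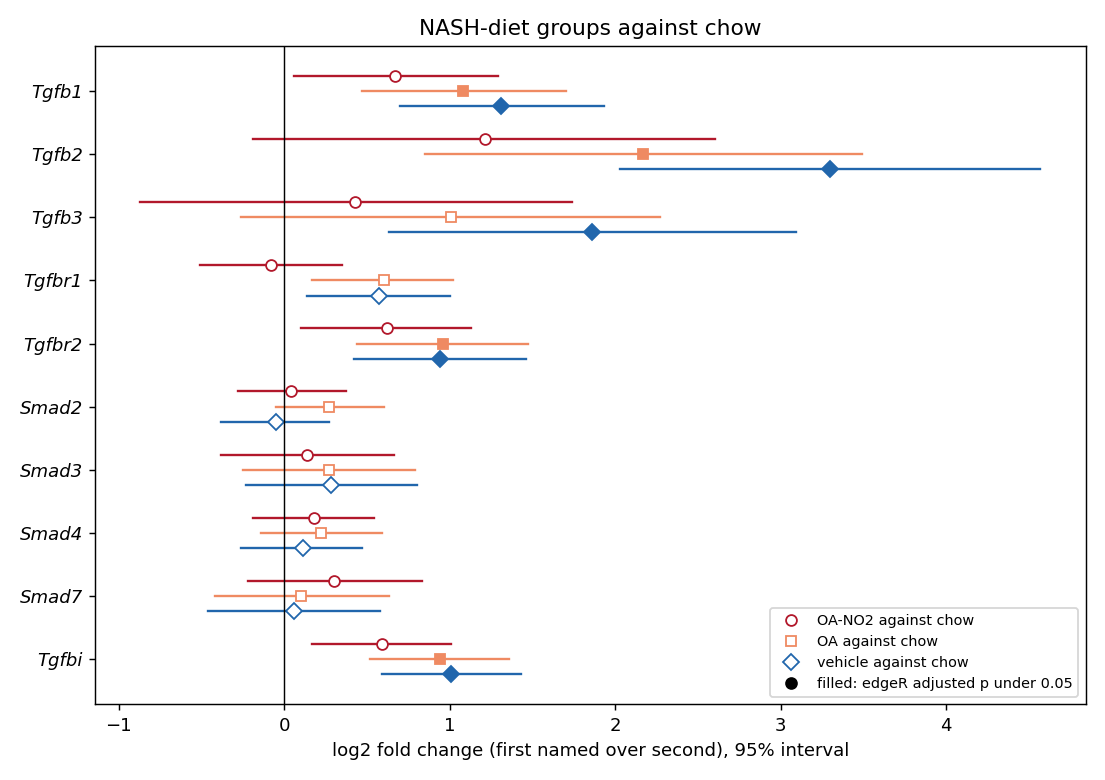
Log2 fold change of the 10 genes in OA-NO2, OA and vehicle livers over the same chow livers, with 95% intervals; filled symbols passed the edgeR test. Ligands, receptors and Tgfbi lie to the right of 0 with vehicle, where Tgfb2 is at 3.30, and the Smads lie near 0 in all 3 comparisons.

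The drug comparisons ask whether OA-NO2 or OA changed the pathway in mice on the same diet with the same pump. None of the 10 genes passed in any of them with edgeR, so the values that follow are differences with their intervals and not calls. OA-NO2 livers had 1.08, 0.207 and 0.604 CPM of Tgfb2, against 1.82, 3.94 and 2.41 CPM in vehicle livers. All OA-NO2 libraries were below all vehicle libraries, from 35 and 170 reads. That is -2.09 ± 0.49 on the log2 scale, with an interval of -3.15 to -1.03 (edgeR adjusted p = 0.138). DESeq2 called Tgfb2 at an adjusted p of 0.0145, and edgeR called it at 0.0379 when genes with few reads were kept in. Without OA-NO2 replicate 1 the log2 fold change was -2.75 (adjusted p = 0.125). Over all alternatives tried its adjusted p ran from 0.0145 to 0.448.

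Tgfb3 had 1.03, 0.570 and 0.725 CPM in OA-NO2 livers, against 1.12, 1.55 and 3.59 CPM in vehicle livers, again without overlap. This gave a log2 fold change of -1.43 ± 0.51, with an interval of -2.53 to -0.32 (edgeR adjusted p = 0.216). Without vehicle replicate 3, its highest library, it was -0.77 (adjusted p = 0.668). Tgfb1 had 12.8, 6.89 and 8.22 CPM in OA-NO2 livers, against 13.7, 12.4 and 17.5 CPM in vehicle livers. Its OA-NO2 replicate 1 reached the vehicle range, and the log2 fold change was -0.64 ± 0.27, with an interval of -1.22 to -0.05 (adjusted p = 0.277).

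Tgfbr1 had 33.0, 22.4 and 31.7 CPM in OA-NO2 livers, against 38.3, 52.2 and 46.2 CPM in vehicle livers. All OA-NO2 libraries lay below all vehicle libraries and within or below the chow range of 25.1 to 36.6 CPM. Tgfbr1 stood at a log2 fold change of -0.65 ± 0.20, with an interval of -1.07 to -0.23 (edgeR adjusted p = 0.174). Tgfbr2 overlapped between the groups, at -0.32 with an interval of -0.83 to 0.18.

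Among the Smads, log2 fold changes of OA-NO2 over vehicle were 0.09 for Smad2, -0.14 for Smad3, 0.07 for Smad4 and 0.24 for Smad7, all with overlap and with intervals that include 0. Smad7 had 9.83, 7.20 and 8.09 CPM in OA-NO2 livers, against 7.87, 6.24 and 7.10 CPM in vehicle livers. Tgfbi had 76.0, 61.1 and 61.4 CPM in OA-NO2 livers, against 74.6, 89.6 and 102 CPM in vehicle livers, and the highest OA-NO2 library overlapped the lowest vehicle library. Its log2 fold change was -0.42 ± 0.19, with an interval of -0.84 to -0.01 (edgeR adjusted p = 0.305).

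Of the 10 genes, edgeR called 0 between OA-NO2 and vehicle, against 0.0207% of all genes, and DESeq2 called 1, against 2.01% of all genes. With unadjusted edgeR p under 0.05, 5 were lower and 0 higher, where 8.51% of all genes were lower by that rule. For 3 of the 10 genes the OA-NO2 values all lay below the vehicle values, against 10.5% of all genes. OA-NO2 replicate 2 had the lowest value of its group for all 10 genes, the Smads included, and replicate 1 the highest for 8 of them.

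The OA and vehicle livers were compared in the same way. Tgfb2 had 1.58, 1.33 and 0.783 CPM in OA livers, against 1.82, 3.94 and 2.41 CPM in vehicle livers, without overlap, and its log2 fold change was -1.13 ± 0.46 (edgeR, not called). Smad2 had 14.7, 13.5 and 16.3 CPM in OA livers, against 11.4, 10.7 and 13.4 CPM in vehicle livers. Its lowest OA library was just above the highest vehicle library, and the log2 fold change was 0.33 ± 0.15 (edgeR, not called). The other 8 genes overlapped. Over all genes, 7.81% had OA values all above the vehicle values and 5.31% had them all below. Tgfb3 stood at -0.85, Tgfb1 at -0.23 and Tgfbi at -0.07, and Tgfbr1, Tgfbr2, Smad3, Smad4 and Smad7 between -0.01 and 0.11. Without vehicle replicate 3, Tgfb3 was at -0.19. The interval of Tgfbr1 ran from -0.39 to 0.45 and that of Tgfbr2 from -0.49 to 0.52. Both edgeR and DESeq2 called 0 of the 10 genes and 0% of all genes, and 2 of the 10 had an unadjusted edgeR p under 0.05, against 3.90% of all genes.

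**Figure D4:**
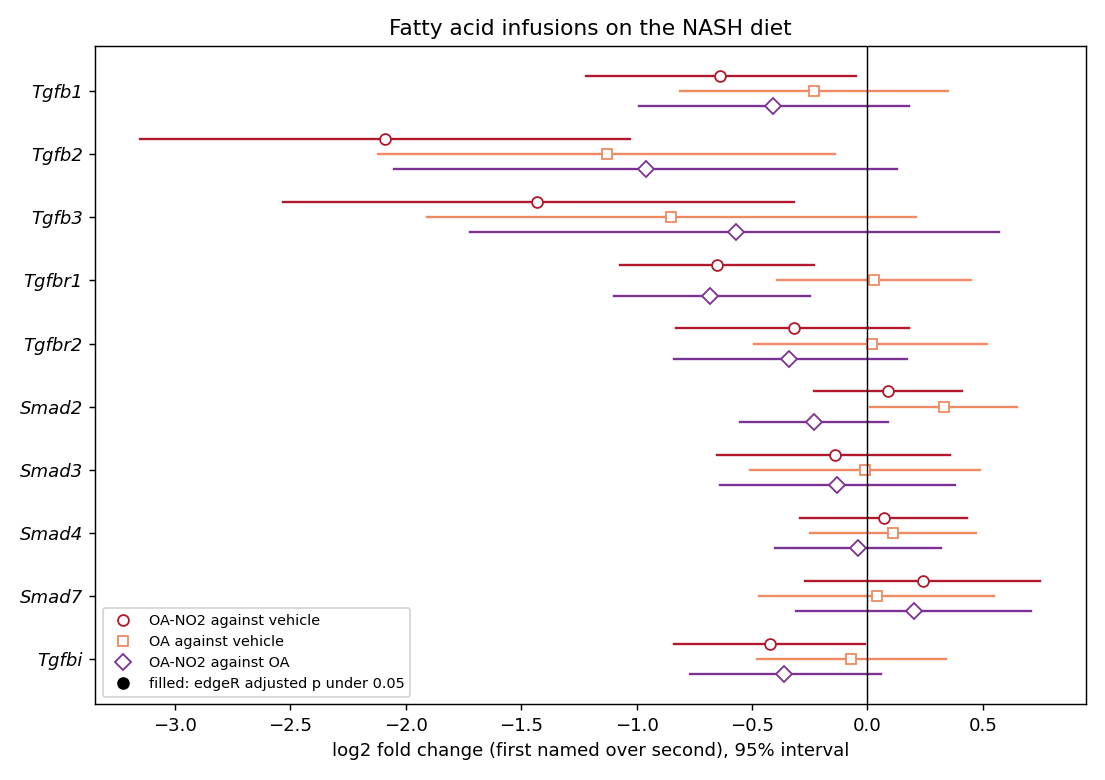
Log2 fold change of the 10 genes for OA-NO2 over vehicle, OA over vehicle and OA-NO2 over OA, with 95% intervals; no symbol is filled, because none passed the edgeR test. Tgfb2 lies at -2.09 for OA-NO2 over vehicle, and Tgfbr1 lies at -0.65 for OA-NO2 over vehicle and at 0.03 for OA over vehicle.

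OA-NO2 and OA differ by the nitro group and were given at the same dose and for the same diet, so they were compared directly as 1 pair over the 10 genes. Tgfbr1 showed the lowest p of the 10. It had 33.0, 22.4 and 31.7 CPM in OA-NO2 livers, against 50.9, 51.1 and 37.2 CPM in OA livers, without overlap. The difference was -0.68 ± 0.20 on the log2 scale, with an interval of -1.10 to -0.25 (edgeR adjusted p = 0.313). Smad2 also had no overlap, with 12.4, 12.2 and 13.2 CPM in OA-NO2 livers, against 14.7, 13.5 and 16.3 CPM in OA livers, at -0.23 with an interval of -0.55 to 0.09.

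For the ligands the direct differences were -0.41 for Tgfb1 (interval -0.99 to 0.18), -0.96 for Tgfb2 (-2.05 to 0.13) and -0.57 for Tgfb3 (-1.72 to 0.57). Without OA-NO2 replicate 1, Tgfb2 was at -1.62. Tgfbr2 stood at -0.34 (-0.84 to 0.17) and Tgfbi at -0.36 (-0.77 to 0.06). Smad3, Smad4 and Smad7 stood at -0.13, -0.04 and 0.20. These intervals include both 0 and sizeable differences, so the compounds are not shown to act alike on these genes. By edgeR and by DESeq2, 0 of the 10 genes were called, and 1 had an unadjusted edgeR p under 0.05, lower, against 6.76% of all genes. Over all genes edgeR called 0.00691% and DESeq2 called 0.327%, and 7.37% had OA-NO2 values all below the OA values, against 2 of the 10.

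The rest of the pathway was described through 6 lists, between vehicle and chow unless stated. Genes that TGF-beta is known to induce had the highest median of the 6. Of 29 listed response genes, 27 were tested, 16 rose, none fell, and the median log2 fold change was 1.83 against -0.01 over all genes tested. Of all genes tested, 11.1% rose and 8.16% fell. Col1a1, the main scar collagen, averaged 52.6 ± 26.0 CPM in vehicle livers and 1.64 ± 0.586 CPM in chow livers (SD, n = 3 each), and rose by 5.05 ± 0.85 on the log2 scale (edgeR adjusted p = 0.00338). Lox, the enzyme that cross-links collagen, had 1.16, 3.94 and 3.68 CPM in vehicle livers, against 5 reads in all in chow livers, and rose by 4.38 ± 1.03 on the log2 scale (adjusted p = 0.0124). Timp1, an inhibitor of matrix proteases, had 3.12, 8.47 and 6.55 CPM in vehicle livers and 1 read in all in chow livers. Sphk1, sphingosine kinase, had 0.559, 1.44 and 1.31 CPM in vehicle livers and 2 reads in all in chow livers. Both were called, and no fold is given on so few reads. Without chow replicate 2 or vehicle replicate 3 the count was 11 of 27.

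Genes that hold or free the latent ligand came next. Of 15 tested, 7 rose (46.7%, against 11.1% of all genes) and none fell, with a median of 0.76. On plain library size 13 were called higher and the median was 1.28, and without chow replicate 1, chow replicate 2 or vehicle replicate 3 the number was 5. Thbs1, thrombospondin 1, which activates the latent ligand and is itself a listed response gene, averaged 5.40 ± 2.12 CPM in vehicle livers and 0.352 ± 0.182 CPM in chow livers, and rose by 3.90 ± 0.72 on the log2 scale (edgeR adjusted p = 0.00455). Ltbp3 and Ltbp1, which tether the latent ligand, rose by 2.30 ± 0.50 and 1.39 ± 0.29. Fbn1, the microfibril to which they bind, rose by 2.07 ± 0.48.

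The remaining 4 lists were mixed. Among 10 tested co-receptors and related receptors, Acvrl1, a receptor for BMP9 and BMP10, rose (1.27 ± 0.32, edgeR adjusted p = 0.0162), and Acvr2b, an activin receptor, fell (-1.15 ± 0.28, adjusted p = 0.0139). Each call was 1 of 10, against 11.1% of all genes higher and 8.16% lower. When chow replicate 1 or vehicle replicate 3 was left out, the number called higher was 0, and on plain library size it was 4. The number called lower was 0 without vehicle replicate 3 and on plain library size. Among 18 other Smads and their regulators, 2 rose and 3 fell. The 2 are 11.1% of the list, the same share as over all genes, and the 3 are 16.7%, against 8.16% over all genes. On plain library size 9 were higher and 1 lower, and 1 was higher when chow replicate 1 or 3 or any 1 vehicle library was left out. Pmepa1, a feedback inhibitor induced by TGF-beta, averaged 6.97 ± 2.01 CPM in vehicle livers and 2.16 ± 0.636 CPM in chow livers (1.74 ± 0.39), and Smad6, the inhibitory Smad of the BMP branch, stood at 1.03 ± 0.30. Smad9, a Smad of the BMP branch, fell to 5.72 ± 0.741 CPM in vehicle livers, against 13.7 ± 5.35 CPM in chow livers (-1.24 ± 0.25, adjusted p = 0.00647). Smurf2, a ubiquitin ligase that removes receptors and Smads, fell by 0.64 on the log2 scale, and Zfyve9, which presents Smads to the receptor, by 0.60.

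Among 20 tested ligands and antagonists of the wider family, 4 rose (20%, against 11.1% of all genes) and none fell. On plain library size 9 were called higher, and without chow replicate 2 the number was 2. Fstl1, a follistatin-like secreted glycoprotein, stood at 2.23 ± 0.37, Gdf10, a ligand of the BMP group, at 1.52 ± 0.34, and the proteoglycans biglycan (Bgn) and decorin (Dcn), which can bind TGF-beta, at 1.24 ± 0.25 and 1.0 ± 0.27. Of 7 BMP response genes, Smad6 alone was called (14.3%, close to the 11.1% of all genes), and 0 were called when any 1 library other than chow replicate 2 was left out. With OA, 12 of 27 response genes and 4 of 15 ligand release genes rose against chow, and none fell. These are 44.4% and 26.7%, where 6.33% of all genes rose and 2.23% fell. Those counts were 6 to 10 and 1 to 2 when any 1 of the chow libraries or OA replicate 1 or 2 was left out, and 17 and 8 without OA replicate 3. With OA-NO2 against chow, edgeR called none in either list. The response genes had a median of 1.31 there, against 1.41 with OA, and 23 of 27 were positive. Of the 27, 16 had an unadjusted edgeR p under 0.05, against 18.8% of all genes. Of the 15 ligand release genes, 13 were positive (median 0.5), with 2 under 0.05.

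With OA-NO2 against vehicle, edgeR called none of the genes in the 6 lists. DESeq2 called 1 response gene and 2 of the wider family lower, where it called 2.01% of all genes in either direction. Of 27 response genes, 9 had an unadjusted edgeR p under 0.05, against 15.8% of all genes. The median of the response genes was -0.86, against 0.02 over all genes, and 23 of 27 had a negative log2 fold change, against 6939 of the 14469 genes. With OA over vehicle, 23 of 27 were negative too, against 7165 of the 14469 genes, and their median was -0.28. In that comparison 1 of the 27 had an unadjusted edgeR p under 0.05, against 3.9% of all genes. Sparc, a matrix glycoprotein, had 64.9, 38.8 and 46.0 CPM in OA-NO2 livers, against 78.3, 98.7 and 151 CPM in vehicle livers (-1.13 ± 0.30, adjusted p = 0.159). Timp1 had 2.42, 0.518 and 0.725 CPM in OA-NO2 livers, against 3.12, 8.47 and 6.55 CPM in vehicle livers (-2.29 ± 0.69, adjusted p = 0.173). Itgav, the integrin chain that frees latent TGF-beta, had 24.5, 19.1 and 22.7 CPM in OA-NO2 livers, against 26.5, 41.1 and 37.8 CPM in vehicle livers (-0.67 ± 0.19, adjusted p = 0.167). Smad9 had 9.68, 11.1 and 10.5 CPM in OA-NO2 livers, against 5.13, 5.49 and 6.55 CPM in vehicle livers (0.86 ± 0.25, adjusted p = 0.164). Nedd4l, with Smad9 the lowest in p among the other Smads and their regulators, moved away from the chow mean of 27.1 CPM. It had 47.7, 29.7 and 46.4 CPM in OA-NO2 livers, against 19.3, 23.3 and 31.7 CPM in vehicle livers.

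**Figure D5:**
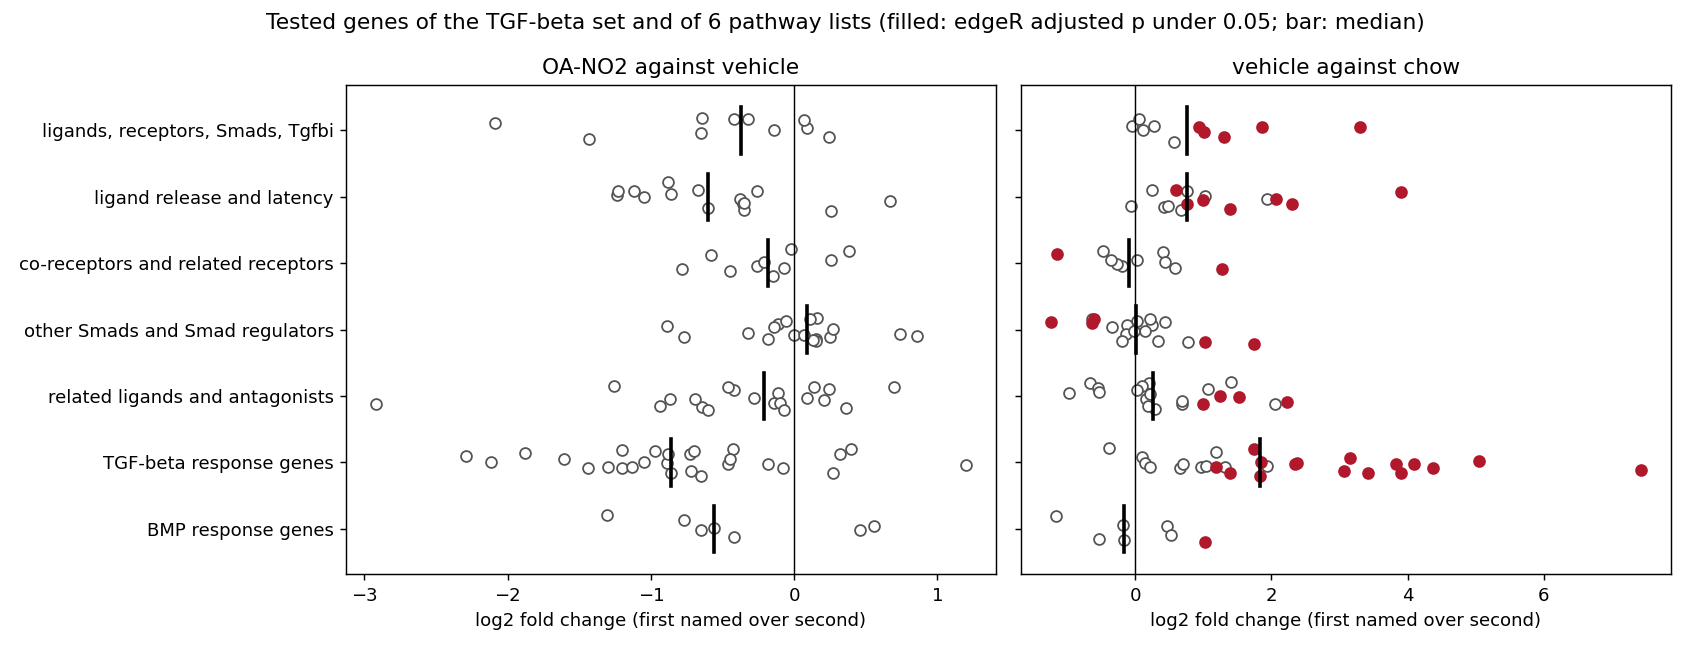
Log2 fold change of the tested genes in the 10-gene set and in 6 pathway lists, for OA-NO2 over vehicle on the left and vehicle over chow on the right, each panel with its own axis; filled points passed the edgeR test and the bar is the median. The response genes have medians of -0.86 on the left and 1.83 on the right, where the point at 7.43 is Timp1, whose chow level rests on 1 read.

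Markers of some, but not all, cell types that make or answer TGF-beta moved with the same comparison. Between vehicle and chow, where 11.1% of all genes rose and 8.16% fell, 7 of 10 macrophage markers rose, and their summed level was 890 to 1170 CPM in vehicle livers, against 310 to 635 CPM in chow livers. For stellate cells 3 of 10 rose (226 to 314 CPM with vehicle, 178 to 223 CPM in chow), and for bile duct cells 6 of 8 (89.8 to 525 CPM with vehicle, 38.9 to 52.1 CPM in chow). Most of the bile duct sum was 1 gene, Spp1, with a mean of 313 of 359 CPM with vehicle and 28.0 of 44.6 CPM in chow. Of 10 endothelial markers edgeR called 0, with 2 at an unadjusted p under 0.05, at 211 to 249 CPM with vehicle and 203 to 339 CPM in chow. Of 9 tested markers of T and NK cells 2 rose (6.24 to 8.53 CPM with vehicle, 3.03 to 5.19 CPM in chow), and of 3 tested platelet markers 1 rose (6.01 to 7.89 CPM with vehicle and 1.72 to 4.67 CPM in chow over the whole list). Of 9 hepatocyte markers 5 fell, and their sum was 54200 to 67800 CPM with vehicle and 134000 to 164000 CPM in chow. No marker was at 0 in all libraries of a group except the platelet genes Gp1bb and Treml1 in chow.

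In OA-NO2 livers the summed macrophage markers stood at 668 to 777 CPM, stellate markers at 178 to 245 CPM and bile duct markers at 61.7 to 114 CPM. Over vehicle, 8 of 10 macrophage markers had a negative log2 fold change (median -0.48), with 4 at an unadjusted edgeR p under 0.05. For stellate markers 9 of 10 were negative (median -0.36), with 2 under 0.05. For bile duct markers all 8 were negative (median -1.8), with 6 under 0.05. None of these was called by edgeR, and 15.8% of all genes were under 0.05. Hepatocyte markers summed to 78000 to 115000 CPM in OA-NO2 livers, all above the 54200 to 67800 CPM of vehicle livers, and all 9 had a positive log2 fold change over vehicle (median 0.58), with 0 called by edgeR and 3 at an unadjusted p under 0.05, against 15.8% of all genes. Endothelial markers summed to 220 to 227 CPM, T and NK cell markers to 3.75 to 6.47 CPM and platelet markers to 4.14 to 5.04 CPM in OA-NO2 livers. Over vehicle, 0 of 10 endothelial, 0 of 9 T and NK cell and 1 of 3 tested platelet markers had an unadjusted edgeR p under 0.05. Their log2 fold changes were negative for 7 of 10 endothelial markers (median -0.15) and 7 of 9 T and NK cell markers (median -0.67). All 3 tested platelet markers were negative as well (median -0.42). In OA livers hepatocyte markers summed to 63200 to 104000 CPM, endothelial markers to 224 to 284 CPM, T and NK cell markers to 6.42 to 11.3 CPM and platelet markers to 4.41 to 7.29 CPM. The macrophage, stellate and bile duct sums of OA livers were 790 to 1380, 213 to 297 and 43.8 to 423 CPM, and OA replicate 3, the low library of the ligands, was the lowest in these 3 and the highest for hepatocytes. Spp1 made up most of the bile duct sums here too, with a mean of 203 of 236 CPM with OA and 65.4 of 89.1 CPM with OA-NO2. With OA over vehicle, all 8 bile duct markers (median -0.58) and 7 of 10 stellate markers (median -0.21) were also negative. Of the macrophage markers 3 of 10 were negative (median 0.11). In these 3 lists 0 had an unadjusted edgeR p under 0.05 with OA. OA-NO2 replicate 2, the lowest library for all 10 genes, had the lowest stellate and bile duct sums of its group but the highest macrophage sum. The part of these markers in the results for the 10 genes was not tested.

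The genes whose profiles over the 12 libraries were most like those of the ligands, receptors and Tgfbi were sought among 11393 genes that averaged 1 CPM or more. Likeness was measured as the root mean square difference of centred log2(CPM + 0.5), where 0 means the same profile on that scale. The added 0.5 narrows differences at low CPM, so a small distance there does not mean equal fold changes. Tgfb1 was nearest to the myosin gene Myo9b (0.134), Ppp1r18 (0.150) and Itpripl2 (0.151), against a median of 0.637 over all genes. Tgfb2 was nearest to the Slit receptor gene Robo2 (0.231), Prss23 (0.279) and Ccdc80 (0.282), and Tgfb3 to Timp2 (0.163), a matrix protease inhibitor, P3h3 (0.235) and Efemp1 (0.246), a matrix protein. Tgfbr1 was nearest to the integrin gene Itgav (0.141), Lims1 (0.145) and Cd2ap (0.154), and Tgfbr2 to Rab3d (0.140), St3gal2 (0.148) and Tbc1d1 (0.152). Tgfbi was nearest to Arpc1b (0.127), a part of the actin-branching Arp2/3 complex, then to Trerf1 (0.130) and Itm2c (0.132). Trerf1 averaged 0.417 CPM in chow, and its log2 fold change of vehicle over chow was 1.96, against 1.01 for Tgfbi. For Tgfb2 and Robo2 these were 3.30 and 2.08. None of the 3 nearest genes of any of the 10 was another of the 10. Within the set, the closest pairs were Smad2 with Smad4 (0.145), Smad4 with Smad3 (0.223) and Smad4 with Smad7 (0.230), then Smad3 with Smad7 (0.243) and Tgfbr2 with Tgfbi (0.244). A gene that varies little is close to many others: 1602 genes were closer to Smad4 than Smad3 is and 1821 closer than Smad7 is, whereas 122 were closer to Smad4 than Smad2 is and 115 closer to Tgfbr2 than Tgfbi is. Tgfb1 was closer to Tgfbi (0.281) and Tgfbr2 (0.284) than to Tgfb2 (0.458) or Tgfb3 (0.470), with 238, 257, 1819 and 1982 genes closer in that order. These distances share libraries and the diet difference, and are a description.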

How the data were processed

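The mRNA libraries (KAPA mRNA HyperPrep) of 12 livers, 1 mouse each, were sequenced as paired reads of 76 bases, per the labels. The submitters' processing notes name GRCm38 with Trimmomatic 0.35, HISAT2 2.1.0, HTSeq and SAMtools 1.2. Which annotation release was counted, whether strand was used and how reads that map to several places were handled is not given in the sources used here. Whole-number counts per gene, not normalised, were deposited by the authors, and 0 of their columns were left unmapped. Names and positions came from GENCODE M21 for 24914 of 24983 genes, and the others held 0.0143% of counts. Replicates of a group are separate mice by their labels, and no pair agreed within sampling noise (lowest chi-square per degree of freedom 24.3).

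Genes were filtered with edgeR's default (minimum count 10, minimum total 15), scaled by TMM and fitted with edgeR 4.0.16 (R 4.3.3) in 1 quasi-likelihood model with a coefficient per group over all 12 libraries (biological coefficient of variation 0.226, 8 residual degrees of freedom). Contrasts were adjusted by Benjamini-Hochberg over the 14469 genes. The SE was taken as the size of the log2 fold change over the root of its F statistic, and intervals of 95% use the same error. Likeness used log2(CPM + 0.5). Alternatives were plain library size, DESeq2 size factors, DESeq2 1.42.0, no filter, a mean of at least 1 CPM, the 2 groups alone, and each library left out.

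The 10 genes, the pathway and marker lists and the tests were chosen with earlier results of these data known. All 10 genes are given in every comparison. From each list the text draws on the 4 called genes with the largest change in each direction, or, where none was called, the 2 with the lowest p.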

Additional observations from a re-analysis of the deposited data

How the results depend on the processing

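Of the 60 log2 fold changes (10 genes in 6 comparisons), 719 values were recomputed under 6 alternatives and with each library left out in turn. Of these, 641 kept their direction and their side of the threshold, 25 lost the call, 13 gained it and 40 turned sign, and 1 of those 40 involved a called value. That one was Smad2 between vehicle and chow, 0.463 on plain library size. Plain library size also turned OA over vehicle for Tgfbr1 (-0.05), Tgfbr2 (-0.048) and Smad7 (-0.056), OA-NO2 over vehicle for Smad2 (-0.105) and Smad4 (-0.116), and OA-NO2 over chow for Tgfbr1 (0.246). A mean of at least 1 CPM turned OA over vehicle for Tgfbr1 (-0.002) and Tgfbr2 (-0.007). Between vehicle and chow, 9 of the 10 genes were called on plain library size, and 3 to 5 with 1 library left out. Between OA and chow the number was 7 on plain library size, and 0 to 5 with 1 library left out. Between OA-NO2 and chow it was 1 on plain library size (Tgfbi), and between OA-NO2 and vehicle it was 1 with DESeq2 and 1 without the filter on low counts (Tgfb2).

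With 1 library left out, signs turned for OA-NO2 over chow in Smad2 (-0.041 to 0.126), Smad3 (-0.095 to 0.389) and Tgfbr1 (-0.214 to 0.073). They turned for vehicle over chow in Smad2 (-0.151 to 0.033), Smad4 (-0.002 to 0.265) and Smad7 (-0.149 to 0.292), and for OA over chow in Smad7 (-0.106 to 0.336). They turned for OA-NO2 over vehicle in Smad3 (-0.375 to 0.007) and Smad4 (-0.069 to 0.184), and for OA-NO2 over OA in Smad3 (-0.367 to 0.015) and Smad4 (-0.185 to 0.068). For OA over vehicle they turned in Smad3 (-0.15 to 0.103), Smad7 (-0.105 to 0.19), Tgfbi (-0.259 to 0.049), Tgfbr1 (-0.082 to 0.135) and Tgfbr2 (-0.185 to 0.23). The cause of these turns was not tested.

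Tgfb2 between OA-NO2 and chow could not be fitted on those 2 groups alone, because it did not pass their filter. Over all genes, calls between vehicle and chow numbered 2786, 5758 on plain library size and 1200 (without vehicle replicate 3) to 2276 with 1 library left out. Between OA and chow they numbered 1238, 3776 on plain library size, 776 on the 2 groups alone and 347 (without OA replicate 1) to 2232 (without OA replicate 3) with 1 library left out. Between OA-NO2 and chow they numbered 99, 1127 on plain library size, 653 with DESeq2, 262 without the filter, 53 on the 2 groups alone and 15 to 71 with 1 library left out. Between OA-NO2 and vehicle they numbered 3, 287 with DESeq2, 151 without the filter, 62 on the 2 groups alone, 1 in genes averaging 1 CPM or more and 1 to 4 with 1 library left out. Between OA-NO2 and OA they numbered 1, 50 with DESeq2, 10 without the filter and 1 to 130 with 1 library left out, the highest without OA replicate 3. Between OA and vehicle they numbered 0 in all of these, with 564 genes at an unadjusted edgeR p under 0.05. Tgfb2 and Tgfb3 rest on 10 and 20 chow reads, which limits their precision. No paired analysis was possible because the replicate numbers only follow deposit order, so that no mouse of one group belongs with a mouse of another.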
